A study of Mus musculus with 2 samples.

Results

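Thioacetamide, a hepatotoxic thioamide, is harmless to hepatocytes until it is oxidised inside them. Cyp2e1, a cytochrome P450 concentrated in hepatocytes around the central vein, and flavin-containing monooxygenases convert it first to a sulfoxide and then to a reactive sulfone that binds proteins and lipids. Por, the NADPH-cytochrome P450 reductase, passes electrons from NADPH to every microsomal P450, whereas flavin-containing monooxygenases take their electrons from NADPH directly. Ephx1, the microsomal epoxide hydrolase, opens epoxides made by P450 enzymes and is known as an NRF2-inducible gene, but it is not itself an oxidase of thioacetamide.

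The 5 genes described here are Cyp2e1, Fmo1, Fmo5, Por and Ephx1. They were found as all non-control probes that carry one of these symbols, or a synonym, on both arrays, which gave 10 probes of 39429. Cyp2e1, Fmo1 and Ephx1 had 2 probes each, Fmo5 had 3 and Por had 1, and all 10 were well above background in all 4 channels. The whole series holds 17120 measured genes, a measured gene being one with a probe well above background in at least 1 channel that enters the comparison.

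The samples were livers of C57BL/6 mice. One 2-colour array paired treated wild-type liver, labelled with Cy5, with untreated wild-type liver, labelled with Cy3. The other paired treated and untreated liver of AID transgenic mice in the same orientation. AID is activation-induced cytidine deaminase, an enzyme that edits DNA in B cells. Treated mice drank water containing thioacetamide for 6 months, and no other treatment or allele is given for any group. No label states the promoter of the transgene, the sex, age or number of the mice, or whether their RNA was pooled. Transcripts of the sex chromosomes, given below, differed between treated and untreated wild-type liver. With 1 array per genotype and no dye swap, no comparison has a replicate, none has a p-value, and treatment and dye cannot be told apart within an array.

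The 3 probes below lie in the protein-coding part of their transcripts and are shown because they are the oligonucleotides that read 3 of the 5 genes. Each is 60 bases long, is written 5′ to 3′ on the strand of the transcript, and holds at least 1 reading frame without a stop codon. The Cyp2e1 probe covers transcript bases 925 to 984 and maps to chr7:147956922-147956981 (mm9, plus strand). The Fmo1 probe covers bases 721 to 780 and maps to chr1:164780212-164780271 (mm9, minus strand). The Ephx1 probe covers bases 831 to 890 and maps to chr1:182924124-182924183 (mm9, minus strand). Each maps to 60 unbroken genome bases, so it lies within a single exon.
Cyp2e1: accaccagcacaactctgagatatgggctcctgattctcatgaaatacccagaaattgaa
Fmo1: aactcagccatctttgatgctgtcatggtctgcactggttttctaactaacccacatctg
Ephx1: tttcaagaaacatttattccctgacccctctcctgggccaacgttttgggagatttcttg

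The other 7 probes lie nearer the 3′ ends of the transcripts and are given by position in mm9. The second Cyp2e1 probe is at chr7:147960628-147960687, the second Fmo1 probe at chr1:164760037-164760096 and the second Ephx1 probe at chr1:182919689-182919748. The Fmo5 probes are at chr3:97455814-97455873, chr3:97456410-97456469 and chr3:97459133-97459192, and the Por probe is at chr5:136211122-136211181.

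The 3 genes that reached 2-fold on an array, Cyp2e1, Por and Ephx1, have the following 250 bases immediately upstream of their annotated start sites in RefSeq (GRCm38.p6), written 5′ to 3′ on the strand of the gene. They are shown because Cyp2e1 and Por were lower together on the AID transgenic array while Ephx1 was higher on both. Capitals mark every match on either strand to the TATA box, searched as TATAAA, to the CCAAT box, searched by those letters, and to the GC box, searched as GGGCGG. The windows are chr7:140763569-140763818 (plus strand), chr5:135688895-135689144 (plus strand) and chr1:181017570-181017819 (minus strand).
Cyp2e1: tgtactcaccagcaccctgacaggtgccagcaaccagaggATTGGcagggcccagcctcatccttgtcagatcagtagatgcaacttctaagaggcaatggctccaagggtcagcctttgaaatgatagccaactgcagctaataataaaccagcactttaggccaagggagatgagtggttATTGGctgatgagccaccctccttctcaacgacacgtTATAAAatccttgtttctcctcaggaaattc
Por: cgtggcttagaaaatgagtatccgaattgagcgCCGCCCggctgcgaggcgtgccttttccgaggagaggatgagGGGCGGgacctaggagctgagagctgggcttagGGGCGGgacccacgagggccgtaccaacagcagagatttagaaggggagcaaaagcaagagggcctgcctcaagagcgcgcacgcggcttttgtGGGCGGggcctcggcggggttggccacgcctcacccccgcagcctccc
Ephx1: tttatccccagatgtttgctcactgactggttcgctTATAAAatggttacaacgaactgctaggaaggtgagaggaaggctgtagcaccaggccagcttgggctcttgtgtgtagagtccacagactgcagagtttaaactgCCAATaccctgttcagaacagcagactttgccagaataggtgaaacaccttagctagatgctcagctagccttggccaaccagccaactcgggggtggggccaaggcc

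Cyp2e1 and Por, which moved together, share none of these boxes. In the Cyp2e1 window a TATA box starts at -31, counted from the start site, and CCAAT boxes on the opposite strand begin at -210 and -68, with no GC box. In the Por window 4 GC boxes stand at -217, -175, -142 and -48, with no TATA or CCAAT box. The Ephx1 window holds a TATA box at -214 and a CCAAT box at -108. Of 32851 mouse promoter windows of the same length, the TATA box is found in 12.37%, the CCAAT box in 33.85% and the GC box in 32.74%. The core of the antioxidant response element, searched as TGACNNNGC and found in 10.16% of windows, has no match in these 3 windows or in that of Fmo5.

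Thioacetamide-treated liver held less Cyp2e1 mRNA than untreated liver in both genotypes, and the AID transgenic pair showed the larger ratio. The wild-type part of this rests on the loess step, since median centring brought that ratio to -0.08, within the scanner error. Median centring also raised the median of all genes to 0.35, and Cyp2e1 stood at -0.43 against that median. At the coding-region probe the normalized log2 level was 16.17 in untreated wild-type liver, 15.00 in treated wild-type liver, 16.42 in untreated AID transgenic liver and 14.14 in treated AID transgenic liver. At the second probe the levels in the same order were 17.15, 16.47, 17.36 and 15.96. Both probes thus placed the 4 livers in the same order, untreated AID transgenic highest and treated AID transgenic lowest.

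Averaged over its 2 probes, Cyp2e1 had a log2 treatment ratio of -0.92 ± 0.23 on the wild-type array, 1.9-fold lower in treated liver. The value after ± on a treatment ratio, here and below, is the scanner software's own error of the log2 ratio, averaged over a gene's probes. For a difference of the ratios, it is the root of the summed squares of the errors of both arrays. For a comparison between arrays, the software's relative errors of the 2 channel signals are combined in the same way. All are called scanner error here, and none covers biological spread. On the AID transgenic array the ratio was -1.84 ± 0.28, 3.58-fold lower, and 28 of 16708 measured genes had a lower one. The probes differed in size on both arrays, at -1.17 and -0.68 on the first and -2.29 and -1.40 on the second. The AID transgenic ratio minus the wild-type ratio was -0.92 ± 0.36. At the 2 probes that difference was -1.12 and -0.72, so it was below zero at each.

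Por, the electron donor of the P450 enzymes, was lower in treated than in untreated AID transgenic liver. Its single probe had levels of 15.10 in untreated wild-type, 14.75 in treated wild-type, 15.13 in untreated AID transgenic and 14.10 in treated AID transgenic liver. Both untreated livers were level within the scanner error, and the treated AID transgenic liver was the lowest of the 4. The treatment ratio was -0.35 ± 0.21 in wild-type and -1.03 ± 0.22 in AID transgenic liver, the latter 2.05-fold lower. With median centring the wild-type value turned to 0.45 and the AID transgenic value, at -0.28, no longer passed 2-fold. The difference between the genotypes was -0.68 ± 0.31.

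**Figure D1:**
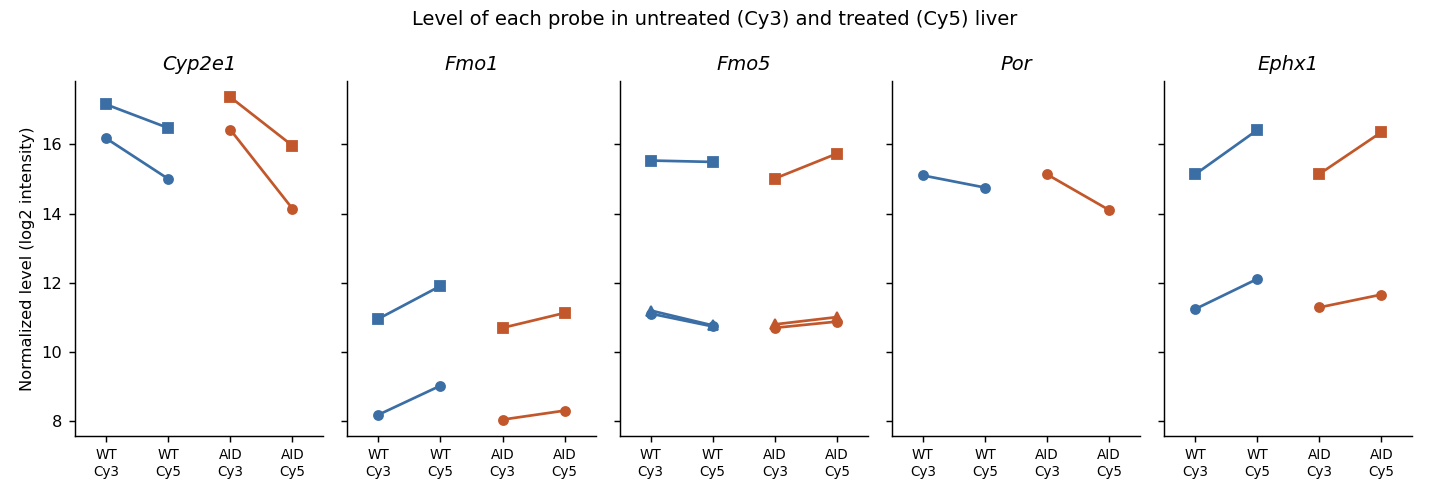
Normalized log2 level of each probe of the 5 genes in untreated (Cy3) and treated (Cy5) liver of wild-type (WT, blue) and AID transgenic (AID, orange) mice. Each line joins the 2 channels of 1 probe on 1 array, and levels compare samples within a probe, not probes with each other. Cyp2e1 and Por end lowest in treated AID transgenic liver, at 14.14 and 15.96 for the Cyp2e1 probes and 14.10 for Por.

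Fmo1, a flavin monooxygenase of broad substrate range, was higher in treated than in untreated liver, most of all in the wild-type pair. Its coding-region probe read 8.19, 9.03, 8.05 and 8.31 in untreated wild-type, treated wild-type, untreated AID transgenic and treated AID transgenic liver. The second probe read 10.96, 11.91, 10.70 and 11.13 in that order. Treated wild-type liver was the highest at both probes and untreated AID transgenic liver the lowest. The treatment ratio was 0.90 ± 0.22 in wild-type liver, 1.86-fold higher, and 0.35 ± 0.21 in AID transgenic liver. The difference between the genotypes was -0.55 ± 0.31, the opposite sign to the treatment ratios themselves.

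Fmo5, a flavin monooxygenase that acts mainly on ketones and aldehydes and oxidises sulfur poorly, had treatment ratios of opposite sign in the 2 genotypes. Its brightest probe read 15.53 in untreated wild-type, 15.49 in treated wild-type, 15.01 in untreated AID transgenic and 15.73 in treated AID transgenic liver. The other 2 probes read 11.11 and 11.20, 10.74 and 10.77, 10.70 and 10.80, and 10.88 and 11.01 in the same livers. Untreated AID transgenic liver was the lowest of the 4 at the brightest probe, with the treated wild-type liver close to it at the others. The treatment ratio was -0.28 ± 0.21 in wild-type and 0.37 ± 0.21 in AID transgenic liver, and the difference was 0.65 ± 0.29. The 3 probes gave -0.38, -0.04 and -0.43 on the first array and 0.18, 0.72 and 0.21 on the second. The wild-type ratio turned to 0.45 when the arrays were only centred on their medians, so its sign rests on the loess step.

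Ephx1, which hydrolyses epoxides, was higher in treated liver of both genotypes. The coding-region probe read 11.24 in untreated wild-type, 12.11 in treated wild-type, 11.29 in untreated AID transgenic and 11.66 in treated AID transgenic liver. The second probe read 15.13, 16.41, 15.14 and 16.35. Treated livers stood above untreated livers at both probes, with the untreated pair within the scanner error of each other. The treatment ratio was 1.07 ± 0.23 in wild-type liver, 2.11-fold higher, and 0.79 ± 0.22, 1.72-fold higher, in AID transgenic liver. The difference, -0.29 ± 0.31, was within the scanner error. On the AID transgenic array the probes disagreed, at 0.37 and 1.21.

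**Figure D2:**
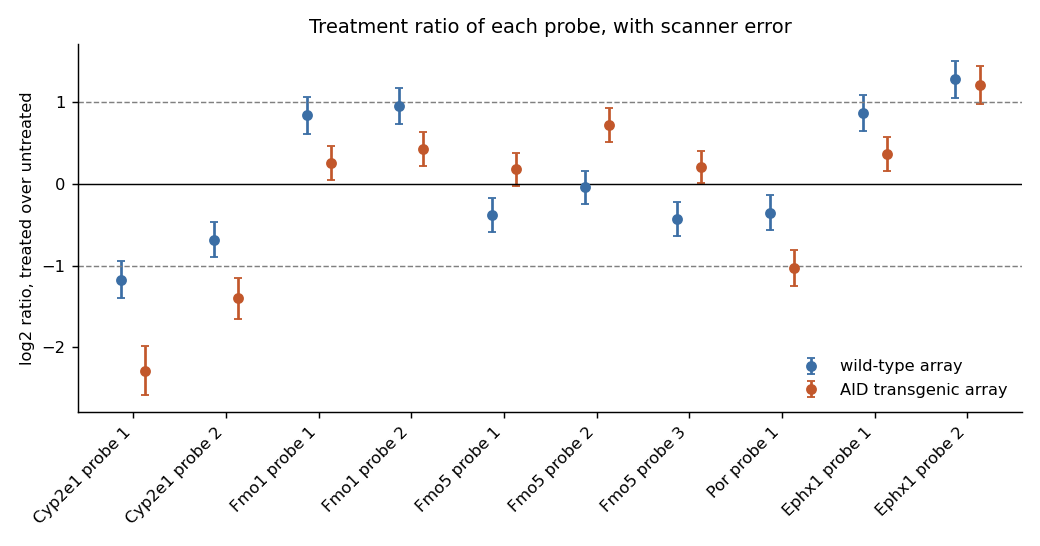
Log2 ratio of treated over untreated liver for each of the 10 probes on the wild-type (blue) and AID transgenic (orange) arrays. Bars are the scanner software's error and dashed lines mark 2-fold. The Cyp2e1 probes lie lowest, at -2.29 and -1.40 on the AID transgenic array, and the second Ephx1 probe is above 2-fold on both arrays, at 1.28 and 1.21.

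Judged by a fold of at least 2, 1 of the 5 genes was higher and 0 lower in treated wild-type liver, where 3.5% of 16673 measured genes passed, 310 higher (1.86%) and 274 lower (1.64%). On the AID transgenic array 0 were higher and 2 lower, against 2.16% of 16708 genes, 203 higher (1.21%) and 158 lower (0.946%). Centring each array on its median in place of loess gave splits of 1729 higher and 102 lower and of 1358 and 53. The software's processed signals gave 1577 and 606, and 1519 and 474, and normexp with no offset 782 and 406, and 620 and 269. For the difference of the ratios 0 of the 5 passed, against 1.98% of 17120 genes, 0.929% higher and 1.05% lower.

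The medians over the 5 genes carry little, because their members moved in opposite directions. The median treatment ratio was -0.28 in wild-type and 0.35 in AID transgenic liver, against 0.03 over all genes on each array. The middle 95% of all genes ran from -0.82 to 0.87 and from -0.68 to 0.78 on the 2 arrays. Cyp2e1, Fmo1 and Ephx1 lay outside that range on the wild-type array and Cyp2e1, Por and Ephx1 on the AID transgenic array.

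**Figure D3:**
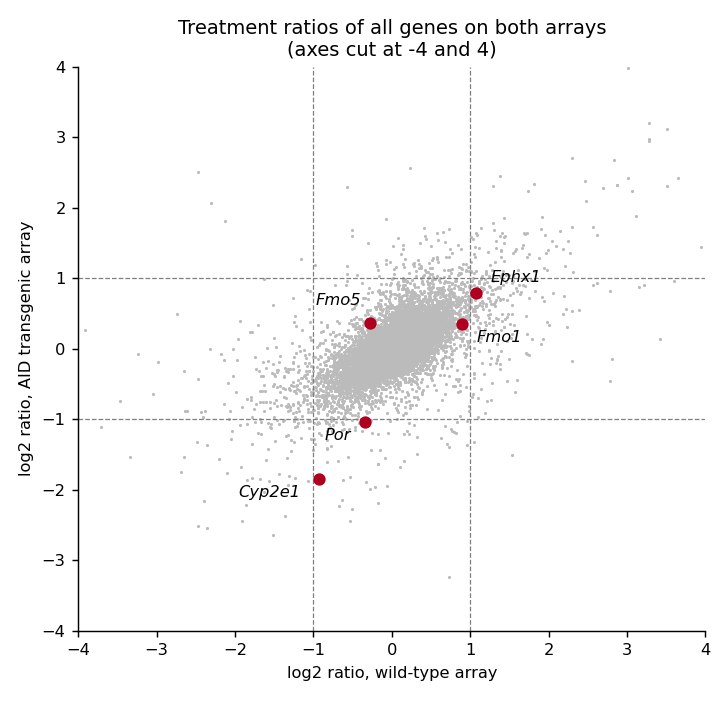
Log2 treatment ratio of every gene measured on both arrays, wild-type on the horizontal and AID transgenic on the vertical axis, with the 5 genes in red and dashed lines at 2-fold. Cyp2e1 (-0.92, -1.84) and Por (-0.35, -1.03) lie below the lower 2-fold line, while Fmo5 (-0.28, 0.37) is in the upper left quadrant.

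The treatment ratios depended on how the dyes were balanced. The differences between genotypes moved little with it, but a dye shift common to both arrays cancels in them. Their narrow ranges therefore do not show that they are sounder than the ratios. With median centring, all 10 ratios were higher and the median of all genes rose from 0.03 to 0.35 for the wild-type pair and to 0.34 for the AID transgenic pair. Cyp2e1 then stood at -0.08 and -1.05, Por at 0.45 and -0.28, Fmo1 at 1.53 and 0.92, Fmo5 at 0.45 and 1.08 and Ephx1 at 1.84 and 1.52, wild-type first. Over the 7 alternatives, the difference of AID transgenic minus wild-type ratio stayed between -0.97 and -0.92 for Cyp2e1 and between -0.73 and -0.67 for Por. It stayed between -0.63 and -0.55 for Fmo1, between 0.63 and 0.66 for Fmo5 and between -0.32 and -0.29 for Ephx1.

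**Figure D4:**
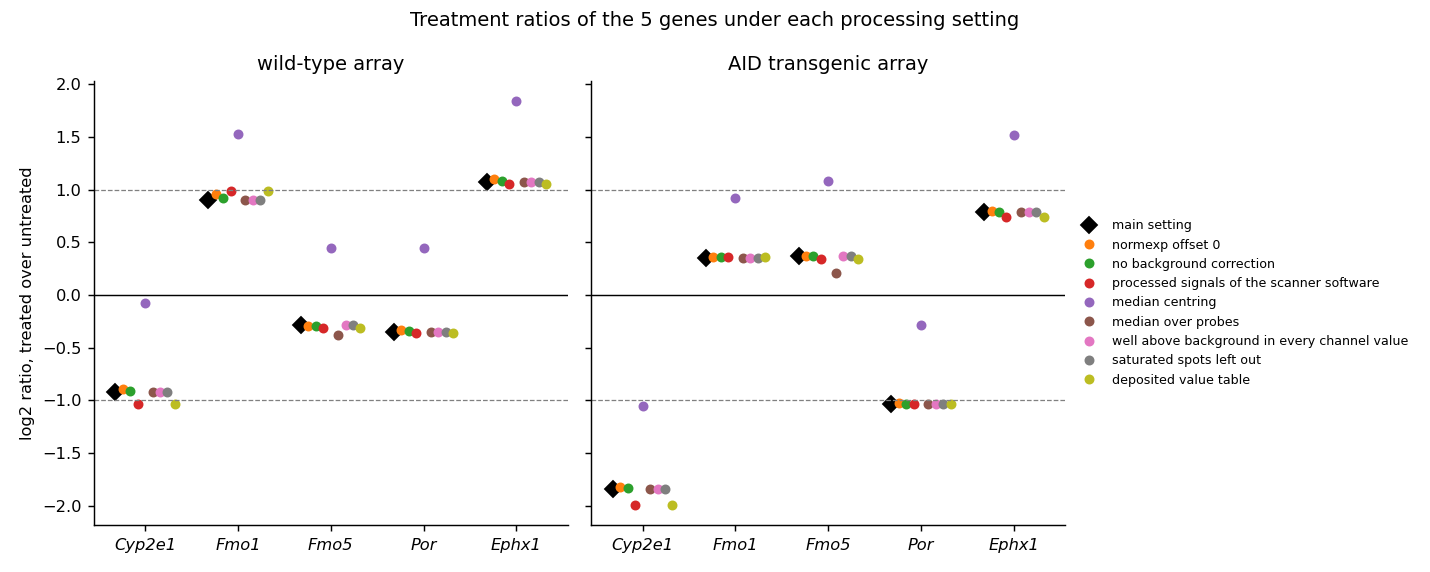
Log2 treatment ratio of the 5 genes on each array under the main setting (black diamonds) and each alternative processing (coloured points), with dashed lines at 2-fold. Median centring, in purple, lies apart from the others, at -0.08 for Cyp2e1 and 0.45 for Por on the wild-type array.

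Between untreated livers, the AID transgenic over wild-type log2 value was 0.23 ± 0.20 for Cyp2e1, -0.20 ± 0.21 for Fmo1, -0.44 ± 0.20 for Fmo5, 0.04 ± 0.20 for Por and 0.03 ± 0.20 for Ephx1. None of the 5 passed 2-fold, against 0.601% of 14309 genes, 0.307% higher and 0.294% lower. Fmo5, lower in AID transgenic liver at all 3 probes, lay just below the middle 95% of all genes, which ran from -0.41 to 0.39, and reached -0.72 with the processed signals, where the median of all genes was -0.27.

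Between treated livers, the AID transgenic over wild-type value was -0.69 ± 0.20 for Cyp2e1, -0.75 ± 0.20 for Fmo1, -0.65 ± 0.20 for Por, -0.26 ± 0.20 for Ephx1 and 0.21 ± 0.20 for Fmo5. Cyp2e1, Fmo1 and Por were below the middle 95% of all genes, which ran from -0.52 to 0.58, but 0 of the 5 passed 2-fold, against 1.49% of 17092 genes, 0.731% higher and 0.755% lower. With the processed signals Fmo1 reached -1.11, while the median of all genes stood at -0.27. These cross-array values set 1 array against another and share their channels with the treatment ratios.

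Among the other flavin monooxygenases, Fmo2 separated the 2 arrays further than Fmo1 and Fmo5 did. Fmo2, a form abundant in lung, was past 2-fold on the wild-type array only, with ratios of 1.21 ± 0.25 in wild-type and -0.74 ± 0.23 in AID transgenic liver. Fmo4 was at least 1.64-fold higher in treated wild-type and at least 1.28-fold higher in treated AID transgenic liver, its untreated signals being not well above background. Fmo6 stood at -0.07 ± 0.33 in AID transgenic liver, while its untreated wild-type signal was not well above background and no wild-type ratio is given, and Fmo9 was not well above background in any channel.

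In mouse liver Fmo1 is known as higher in females, so transcripts of the sex chromosomes are given beside these values. Of 5 sex-linked markers 4 were measured on the wild-type array, 1 at least 2-fold higher and 2 lower in treated liver. Xist, made by the inactive X chromosome, exceeded its untreated signal at least 6.36-fold in the treated wild-type channel. The Y-linked Ddx3y and Eif2s3y were at least 17.6-fold and at least 32.1-fold lower, and Uty fell short of its untreated signal at least 1.47-fold. On the AID transgenic array Ddx3y and Eif2s3y stood at -0.11 and -0.05, and neither channel there held an Xist signal well above background. By these transcripts treated wild-type liver read as female and the other channels as male, though no label states the sex. For every wild-type ratio, those of the 5 genes included, treatment and this difference cannot be told apart. For every comparison of the genotypes that uses treated wild-type liver, genotype and this difference cannot be told apart either.

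With loess, the remaining electron donors lay nearer zero than Por on the AID transgenic array, but not with median centring, where Por stood at -0.28, Pgrmc1 at 1.40, Cyb5b at 0.98 and Cyb5a at 0.91. Of 12 donors and their reductases 11 were measured, with 0 past 2-fold in wild-type liver and 1 lower, Por, in AID transgenic liver. Cyb5a and Cyb5b, the cytochromes b5, had ratios of 0.36 and 0.14 in wild-type and 0.10 and 0.28 in AID transgenic liver. Cyb5r1, Cyb5r3 and Cyb5r4, reductases of the cytochrome b5 family, stood at 0.21, -0.39 and 0.06, and at 0.08, -0.32 and 0.01. Pgrmc1, a haem protein that binds P450 enzymes, was at 0.56 and 0.62, and Pgrmc2 at 0.12 and 0.08. The mitochondrial donors Fdx1, Fdx2 and Fdxr read -0.42, 0.09 and -0.15 in wild-type and -0.41, 0.00 and 0.20 in AID transgenic liver. Cyb5r2 was not well above background.

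With loess, none of the other 3 epoxide hydrolases passed 2-fold upward on either array, whereas the processed signals gave 2 of the 4 genes higher in treated wild-type liver. Ephx2, the soluble hydrolase of fatty acid epoxides, had ratios of -1.47 ± 0.24 in wild-type and -0.34 ± 0.21 in AID transgenic liver, the latter turning to 0.42 with median centring. Ephx3 stood at -0.33 and -0.17, and turned to 0.28 and 0.43 with median centring. Ephx4 was at least 1.17-fold higher in treated wild-type liver, and its untreated signal was not well above background.

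**Figure D5:**
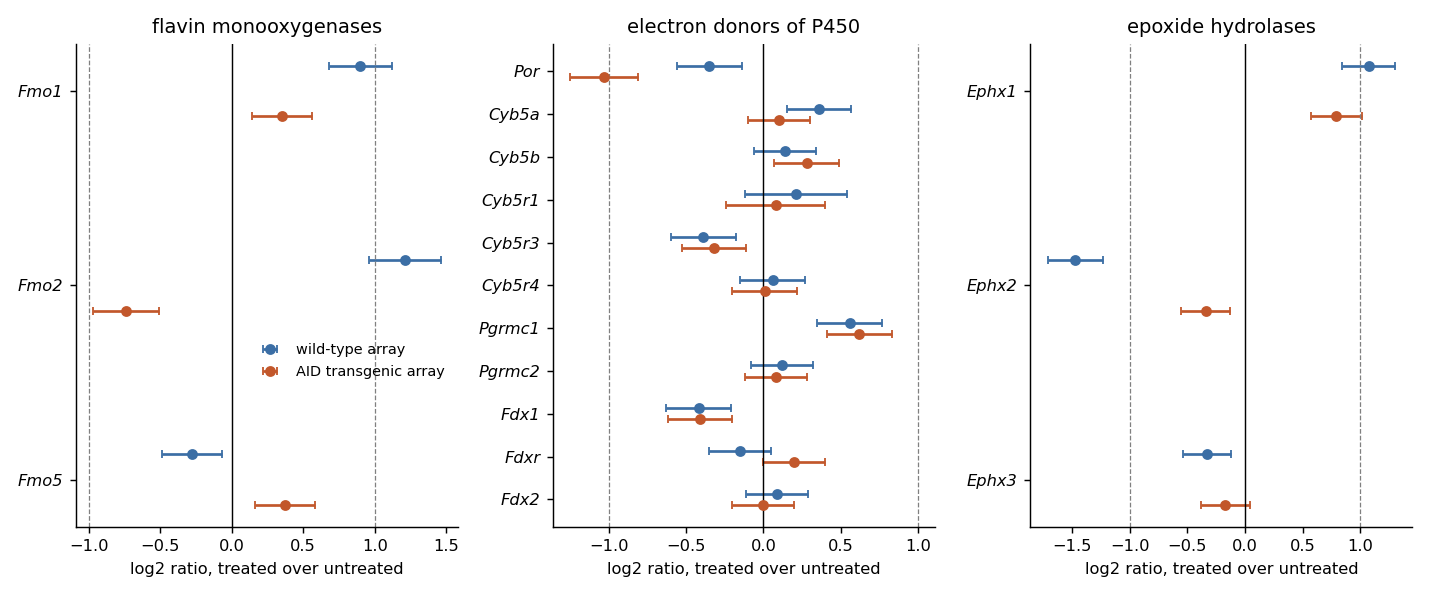
Log2 treatment ratio of the flavin monooxygenases, electron donors of P450 and epoxide hydrolases on the wild-type (blue) and AID transgenic (orange) arrays, with the scanner software's error and dashed lines at 2-fold. Genes with a dim untreated signal (Fmo4, Fmo6, Ephx4) are left out. With loess, Por is the donor furthest from zero in AID transgenic liver, at -1.03 (with median centring it is Pgrmc1, at 1.40), and Fmo2 lies at 1.21 in wild-type liver against -0.74 in AID transgenic liver.

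Among P450 enzymes of families 1 to 3, which carry most drug oxidation in liver, Cyp2e1 was one of the lower genes on the AID transgenic array. Of 52 measured there, 12 passed 2-fold, 2 upward and 10 downward, and 4 had a lower ratio than Cyp2e1. Those 4 were Cyp2c29 at -2.44, Cyp2c39 at -2.27, Cyp2c37 at -2.23 and Cyp2c54 at -2.18. Cyp2a4 at 2.41 and Cyp1a1 at 1.42 were the 2 higher genes. With median centring 10 were higher and 7 lower, and with the processed signals 8 and 9.

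On the wild-type array 49 P450 genes were measured. Past 2-fold, 9 of them stood higher and 8 lower in treated liver, and 9 had a lower ratio than Cyp2e1. With median centring 14 were higher and 3 lower. The higher genes included Cyp3a44 at 6.82, Cyp2b13 at 5.05 and Cyp3a41b at 3.61, which are known as female-predominant in mouse liver. The lower genes included Cyp2d9, known as male-predominant, at -3.46. On the AID transgenic array Cyp3a41b stood at 0.96 and Cyp2d9 at -0.74, while Cyp3a44 and Cyp2b13 were at least 1.66-fold and at least 1.24-fold higher over untreated signals not well above background. Probes of such closely related P450 genes may bind more than a single transcript, which was not tested.

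Cyp2e1 is also a pericentral hepatocyte gene, and of 18 measured pericentral genes 3 were at least 2-fold lower and 1 higher in wild-type liver. In AID transgenic liver 8 were lower, Cyp2e1 among them, and 2 higher. Glul, the glutamine synthetase of the innermost pericentral cells, stood at -2.47 and -2.52, and Oat, ornithine aminotransferase, at -2.36 and -2.54. Their AID transgenic minus wild-type differences were -0.05 and -0.19, against -0.92 for Cyp2e1. Other pericentral genes had larger differences than Cyp2e1, with Cyp2c29 at -1.91, Cyp2c37 at -1.56 and Cyp2c50 at -1.29, and 13 of 52 P450 genes had a lower one. The list median was -0.52 in wild-type and -0.57 in AID transgenic liver, and it turned to 0.28 and 0.04 with median centring. Of 14 periportal genes 3 were lower and 2 higher in wild-type liver and 5 lower and 2 higher in AID transgenic liver, with medians of -0.34 and -0.33 that turned to 0.24 and 0.45.

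Hepatocyte markers were measured on both arrays, 10 of 10, as the liver label has it, with median ratios of 0.06 and 0.09. Of these, 1 was at least 2-fold lower on each array, Apoa1 at -1.79 and -1.84, and Alb stood at 0.60 and 0.17. Macrophage markers had a median of 0.01 in wild-type and 0.92 in AID transgenic liver, with 0 and 2 of 7 at least 2-fold higher. Stellate cell and myofibroblast markers had medians of -0.10 and -0.44, and their members differed. In wild-type liver 1 of 7 was at least 2-fold higher and 0 lower, Col1a1 at 1.60, with -0.44 in AID transgenic liver. In AID transgenic liver 0 were higher and 1 lower, Acta2 at -1.89, with -0.32 in wild-type liver. For the difference of the ratios 0 of the 7 were higher and 3 lower. In whole liver, fewer cells of a type and less RNA per cell cannot be told apart, and the part of either in the Cyp2e1 and Por values was not tested.

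Haem is the cofactor of P450 enzymes, and 13 of 13 genes of its synthesis and breakdown were measured. On the wild-type array 1 was at least 2-fold lower, the erythroid Alas2 at -2.33, and 0 were higher. On the AID transgenic array 0 passed, with Alas1, the rate-limiting synthase in liver, just short of 2-fold at -0.998 ± 0.23 and at -0.39 ± 0.21 in wild-type liver. Alad, a later enzyme of the same pathway, stood at -0.43 in wild-type and at -0.76 in AID transgenic liver. Hmox1, the inducible haem oxygenase, was at -0.08 and 0.50, with an SD of 1.13 between its 2 probes on the AID transgenic array. The wild-type values of Alas1 and Alad turned to 0.35 and 0.27 with median centring.

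Of 12 transcription regulators tied to these genes, 1 was at least 2-fold higher and 1 lower on each array. Nfe2l2, which encodes NRF2, was higher on both, at 1.29 ± 0.24 and 1.78 ± 0.27. Cebpa, a hepatocyte differentiation factor, was lower in wild-type liver at -1.12, with -0.39 in AID transgenic liver. Nr1i2, the pregnane X receptor, was lower in treated than in untreated AID transgenic liver at -1.44, with -0.15 in wild-type liver. Its untreated livers already differed, with AID transgenic over wild-type at 1.07 ± 0.20, while its treated livers stood at -0.22 ± 0.20. Ctnnb1, the beta-catenin gene, stood at 0.22 and 0.17.

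Ephx1 belongs to the NRF2 targets, of which 23 of 24 were measured. In wild-type liver 12 of them passed 2-fold upward and 0 downward, and in AID transgenic liver 14 and 0. Their medians were 1.07 and 1.11 with Ephx1 counted among them. Of the other 22, 11 and 14 passed upward, with medians of 1.05 and 1.14, against 1.07 and 0.79 for Ephx1. Gsta1, a glutathione transferase, was the highest at 4.32 and 4.41, followed by others such as Cbr3, a carbonyl reductase, at 3.02 and 3.98. Nqo1, the quinone reductase, stood at 2.21 and 1.17, and Gclc, the catalytic subunit of glutathione synthesis, at 1.90 and 1.70.

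The genes whose 4 centred channel levels came closest to those of each member were found among 13452 genes well above background in every channel, by root mean square distance on the log2 scale. Nearest to Cyp2e1 were Got1 at 0.096, Gpcpd1 at 0.114 and Retreg1 at 0.119, with 17 genes in all within 0.25. Nearest to Por were Alas1 at 0.037, Slc43a1 at 0.053 and Khdrbs3 at 0.057, with 437 genes within 0.25. Nearest to Fmo1 were Arrdc4, Acnat1 and Il33, with 652 within 0.25, and nearest to Ephx1 were Tmem38a, Map1s and BC029722, with 687. Fmo5 was nearest to Pgm3, Bdnf and Slc6a9, and its flat pattern had 8748 genes within 0.25. Likeness over 4 levels from 2 arrays is a description only. The limit of 0.25 is not scaled to the range of a gene's levels, so the number of near neighbours depends on that range. Cyp2e1, with the widest range of the 5 genes at 1.84, had the fewest near neighbours, and Fmo5, with the narrowest at 0.44, the most.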

How the data were processed

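Two-colour Agilent arrays of 44397 features were scanned for 1 wild-type and 1 AID transgenic liver pair. The deposited scanner files hold, per the file headers, mean and background signal intensity of each channel, the software's processed signals with their errors, and a log10 ratio of Cy5 over Cy3. A deposited value table holds the same log10 ratio, equal for all 44397 features. Flags for spots well above background, outliers and saturation are scores given by the scanner software, per the file headers. The headers name Feature Extraction 10.7.3.1, the submitters' processing notes 10.5.1.1. Genome positions are those of the headers (mm9).

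In R 4.3.3 with limma 3.58.1, 43020 non-control spots were background-corrected (normexp, offset 50), loess-normalized within arrays and, for channel levels, Aquantile-normalized between arrays. From the deposited intensities log2 ratios were computed, spots of a probe averaged, and gene values taken as the mean over probes. Outlier spots (197 and 207) were left out and no spot was saturated. Well above background were 56% and 53.9% of Cy3 and 68.4% and 68.8% of Cy5 spots. The 399 probes printed 10 times had a median SD of 0.07 (log2), and probes of the same gene differed with a median SD of 0.14 on both arrays (5304 genes). For probes not well above background in 1 channel, "at least" folds set the brighter level against the higher of the lowest level well above background and the dim probe's own. Probes were named by RefSeq accession (26055), symbol (3195) or synonym (930), and 9249 were not named. Promoters were matched by symbol for 4 of the 5 genes.

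A gene counted as called at 2-fold from a log2 value of 1 upward in size. With 1 array per genotype no test was possible, so precision is limited by their number. Named genes are the 5 members, the flavin monooxygenases, electron donors and epoxide hydrolases, list members at 2-fold or among the 4 largest, and the 3 nearest genes by pattern; genes such as Alb and Ctnnb1 were named from their lists after their values were seen. Many listed genes enter only the counts and medians or are not reported here. The members and lists were chosen with earlier results of these data known. The procedure was tested on simulated data. Alternatives covered background correction, centring, probe summary, filters and normalization between arrays.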

Additional observations from a re-analysis of the deposited data

Results flagged for a closer look

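Only the flavin monooxygenases, electron donors and epoxide hydrolases were searched for treatment ratios of opposite sign on the 2 arrays, each beyond its scanner error, and 2 of the genes reported here met this. Other lists hold such genes too, which are not followed here. Fmo5 had a log2 ratio of -0.28 in wild-type and 0.37 in AID transgenic liver, and the wild-type value changed sign to 0.45 with median centring. Fmo2 had 1.21 in wild-type and -0.74 in AID transgenic liver, with the same signs under all alternatives run. Neither difference was tested, since no array was replicated.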

How the results depend on the processing

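No paired analysis was possible because each genotype has 1 array, and no replicate could be left out. Of 205 values of the 5 genes under the alternatives, 184 stayed within the scanner error and 21 moved, and 0 called values changed sign. Of those that moved, 10 did so with median centring, 9 with the processed signals and 2 with no normalization between arrays. Many of the 184 could not move, so their number is no measure of robustness. No spot was saturated, and every probe of the 5 genes was well above background in all 4 channels. For genes with 1 or 2 probes the median over probes equals the mean. The deposited values repeat the treatment ratios of the processed signals. In wild-type liver 2 of the 5 genes passed 2-fold in place of 1 with the processed signals and with the deposited value table (Ephx1 higher, Cyp2e1 lower) and with median centring (Fmo1 and Ephx1 higher). In AID transgenic liver median centring gave 3 in place of 2 (Fmo5 and Ephx1 higher, Cyp2e1 lower), and Por at -0.28 no longer passed. Between treated livers 1 passed in place of 0 with the processed signals, Fmo1 at -1.11. The highest and lowest of the 4 channels were the same for 3 of the 5 genes with the processed signals and with no normalization between arrays.

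Genes at 2-fold, 584, 361, 339, 86 and 254 for the wild-type ratio, the AID transgenic ratio, their difference, and the untreated and treated comparisons, became 1188, 889, 880, 205 and 468 with normexp offset 0 and 2183, 1993, 1746, 557 and 1065 with the processed signals. Median centring gave 1831 and 1411 and the deposited values 2189 and 1995 for the 2 ratios. Higher genes were 22.4% and 25.2% of those called between untreated and between treated livers with the processed signals, and 40.0% and 37.0% with no normalization between arrays, against 51.2% and 49.2%. The medians of all genes then stood at -0.27 for both and at -0.13 and -0.11. Leaving out saturated spots changed nothing because there were none.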
